A study of Mus musculus with 24 samples.

Results

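The genes described here are 10 markers and regulators of cellular senescence and of the p53 response, chosen by name from the 32561 genes of a transcript table of mouse aorta. They are Trp53, its inhibitor Mdm2, the p53 targets Cdkn1a, Ccng1 and Gdf15, the CDK4/6 inhibitor genes Cdkn2a, Cdkn2b and Cdkn2c, the nuclear lamina gene Lmnb1 and the cytokine gene Il6. All 10 were found in the table, and 8 of them passed the filter on low values described below. Cdkn2a and Il6 did not pass and were tested one by one.

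Senescence is a lasting exit from the cell cycle after damage or stress. The transcription factor p53 turns on Cdkn1a, whose product p21 inhibits cyclin-dependent kinases, and Mdm2, whose product marks p53 for destruction and so closes a feedback loop. The second arm runs through p16Ink4a, encoded by Cdkn2a, and the related inhibitors p15 and p18, which keep the retinoblastoma protein active. Senescent cells commonly lose lamin B1 and secrete interleukin 6, chemokines and matrix proteases. Mice deficient in Klotho, the co-receptor for the hormone FGF23, are widely used as a model of early ageing with high phosphate and calcification of arteries, and p53 and p21 are regulated at the protein as well as at the RNA level.

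The study compared aortas in renal failure, in both sexes and with a mutated Bmp2 gene. Every mouse was congenic on 129S1/SvlmJ, every aorta gave 1 library, and each of the 6 groups had 4 animals. Kl/Kl ∆UCS males (45 to 48 days old) were homozygous for the recessive Klotho mutation, which the labels describe as renal failure, and for the Bmp2 mutation ∆UCS, and were set against control ∆UCS males (45 to 48 days) homozygous for ∆UCS with healthy kidneys. Kl/Kl Bmp2+/+ males (45 to 48 days) were set against control Bmp2+/+ males (44 to 48 days), and Kl/Kl Bmp2+/+ females (45 to 53 days) against control Bmp2+/+ females (45 to 53 days). Controls were heterozygous for the Klotho mutation except 1 of 12, a Bmp2+/+ male that was Klotho wild type. Both alleles were carried in the whole body, so the RNA of an aorta cannot be tied to the loss of either gene in the vessel itself. Klotho-deficient mice, described as smaller and weaker, were bred from heterozygotes and had moistened chow in the cage.

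Each library held 20589000 to 61093000 estimated reads in genes, and mitochondrially encoded genes took 40.2% to 61.2% of its TPM. That share was 44.9% to 54.8% in Kl/Kl females against 52.2% to 60.0% in their controls, 40.2% to 55.8% in Kl/Kl Bmp2+/+ males against 47.3% to 58.6% in controls, and 40.9% to 52.5% in Kl/Kl ∆UCS males against 53.5% to 61.2% in controls. Because every library has the same TPM total, all other genes shift with this share. Over all genes the log2 changes had a median of 0.40 in females, 0.10 in Bmp2+/+ males and 0.34 in ∆UCS males, and -0.02, -0.02 and 0.05 after median-of-ratios scaling, so a member's change is read against these medians. In 2 of 24 libraries the levels of Xist, transcribed from the inactive X, and of Y-linked Ddx3y did not match the sex given. These were Kl/Kl Bmp2+/+ male replicate 1 (Xist 11.4 TPM, Ddx3y 0.0138 TPM) and Kl/Kl Bmp2+/+ female replicate 2 (Xist 0.0281 TPM, Ddx3y 4.81 TPM). They are called the doubted male and the doubted female library below. Results come from the other 22 libraries unless all 24 are named. Kl itself had 0 to 17 estimated reads in the 10 Kl/Kl libraries and 3 to 30 in the 12 controls, too few to check the Klotho labels, and Bmp2 had 0.185 to 1.17 TPM in the 8 ∆UCS libraries and 0.166 to 0.872 TPM in the other 14. Markers of smooth muscle, the main cell of the aortic wall, summed to 73.5 to 625 TPM and those of endothelium to 4.32 to 13.4 TPM over all kept libraries. TPM was divided by the genomic span of a gene, so values are compared between libraries and not between genes.

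None of the 8 members that passed the filter changed with the Klotho genotype in any of the 3 backgrounds, nor with ∆UCS, by limma at an adjusted p of 0.05 over 21248 genes. Across all those genes limma called 2.45% in Kl/Kl females, 0.701% in Bmp2+/+ males that were Kl/Kl, 0.527% in Kl/Kl ∆UCS males, 0% for ∆UCS among controls and 0% for ∆UCS among Kl/Kl males. The members whose libraries did not overlap between Kl/Kl and control were Il6 and Mdm2, higher in Kl/Kl females, Cdkn2c, lower in them, and Il6, higher in Kl/Kl Bmp2+/+ males. In those males 5.06% of all genes were higher without overlap (1.13% with the doubted libraries), and the lowest Kl/Kl and the highest control library had 6 reads of Il6 each. In females 27% of all genes were higher without overlap and 1.38% lower, or 10.5% and 0.542% with the doubted libraries. Of 31 tested genes of the senescence-associated secretory list, 12 rose in Kl/Kl females, 5 in Kl/Kl Bmp2+/+ males and 4 in Kl/Kl ∆UCS males, and none passed with all 24 libraries. Macrophage markers were higher in the same animals, at a summed 197 to 314 TPM in Kl/Kl females and 22 to 31.4 TPM in control females. Listed p53 targets did not pass the test in any background.

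**Figure D1:**
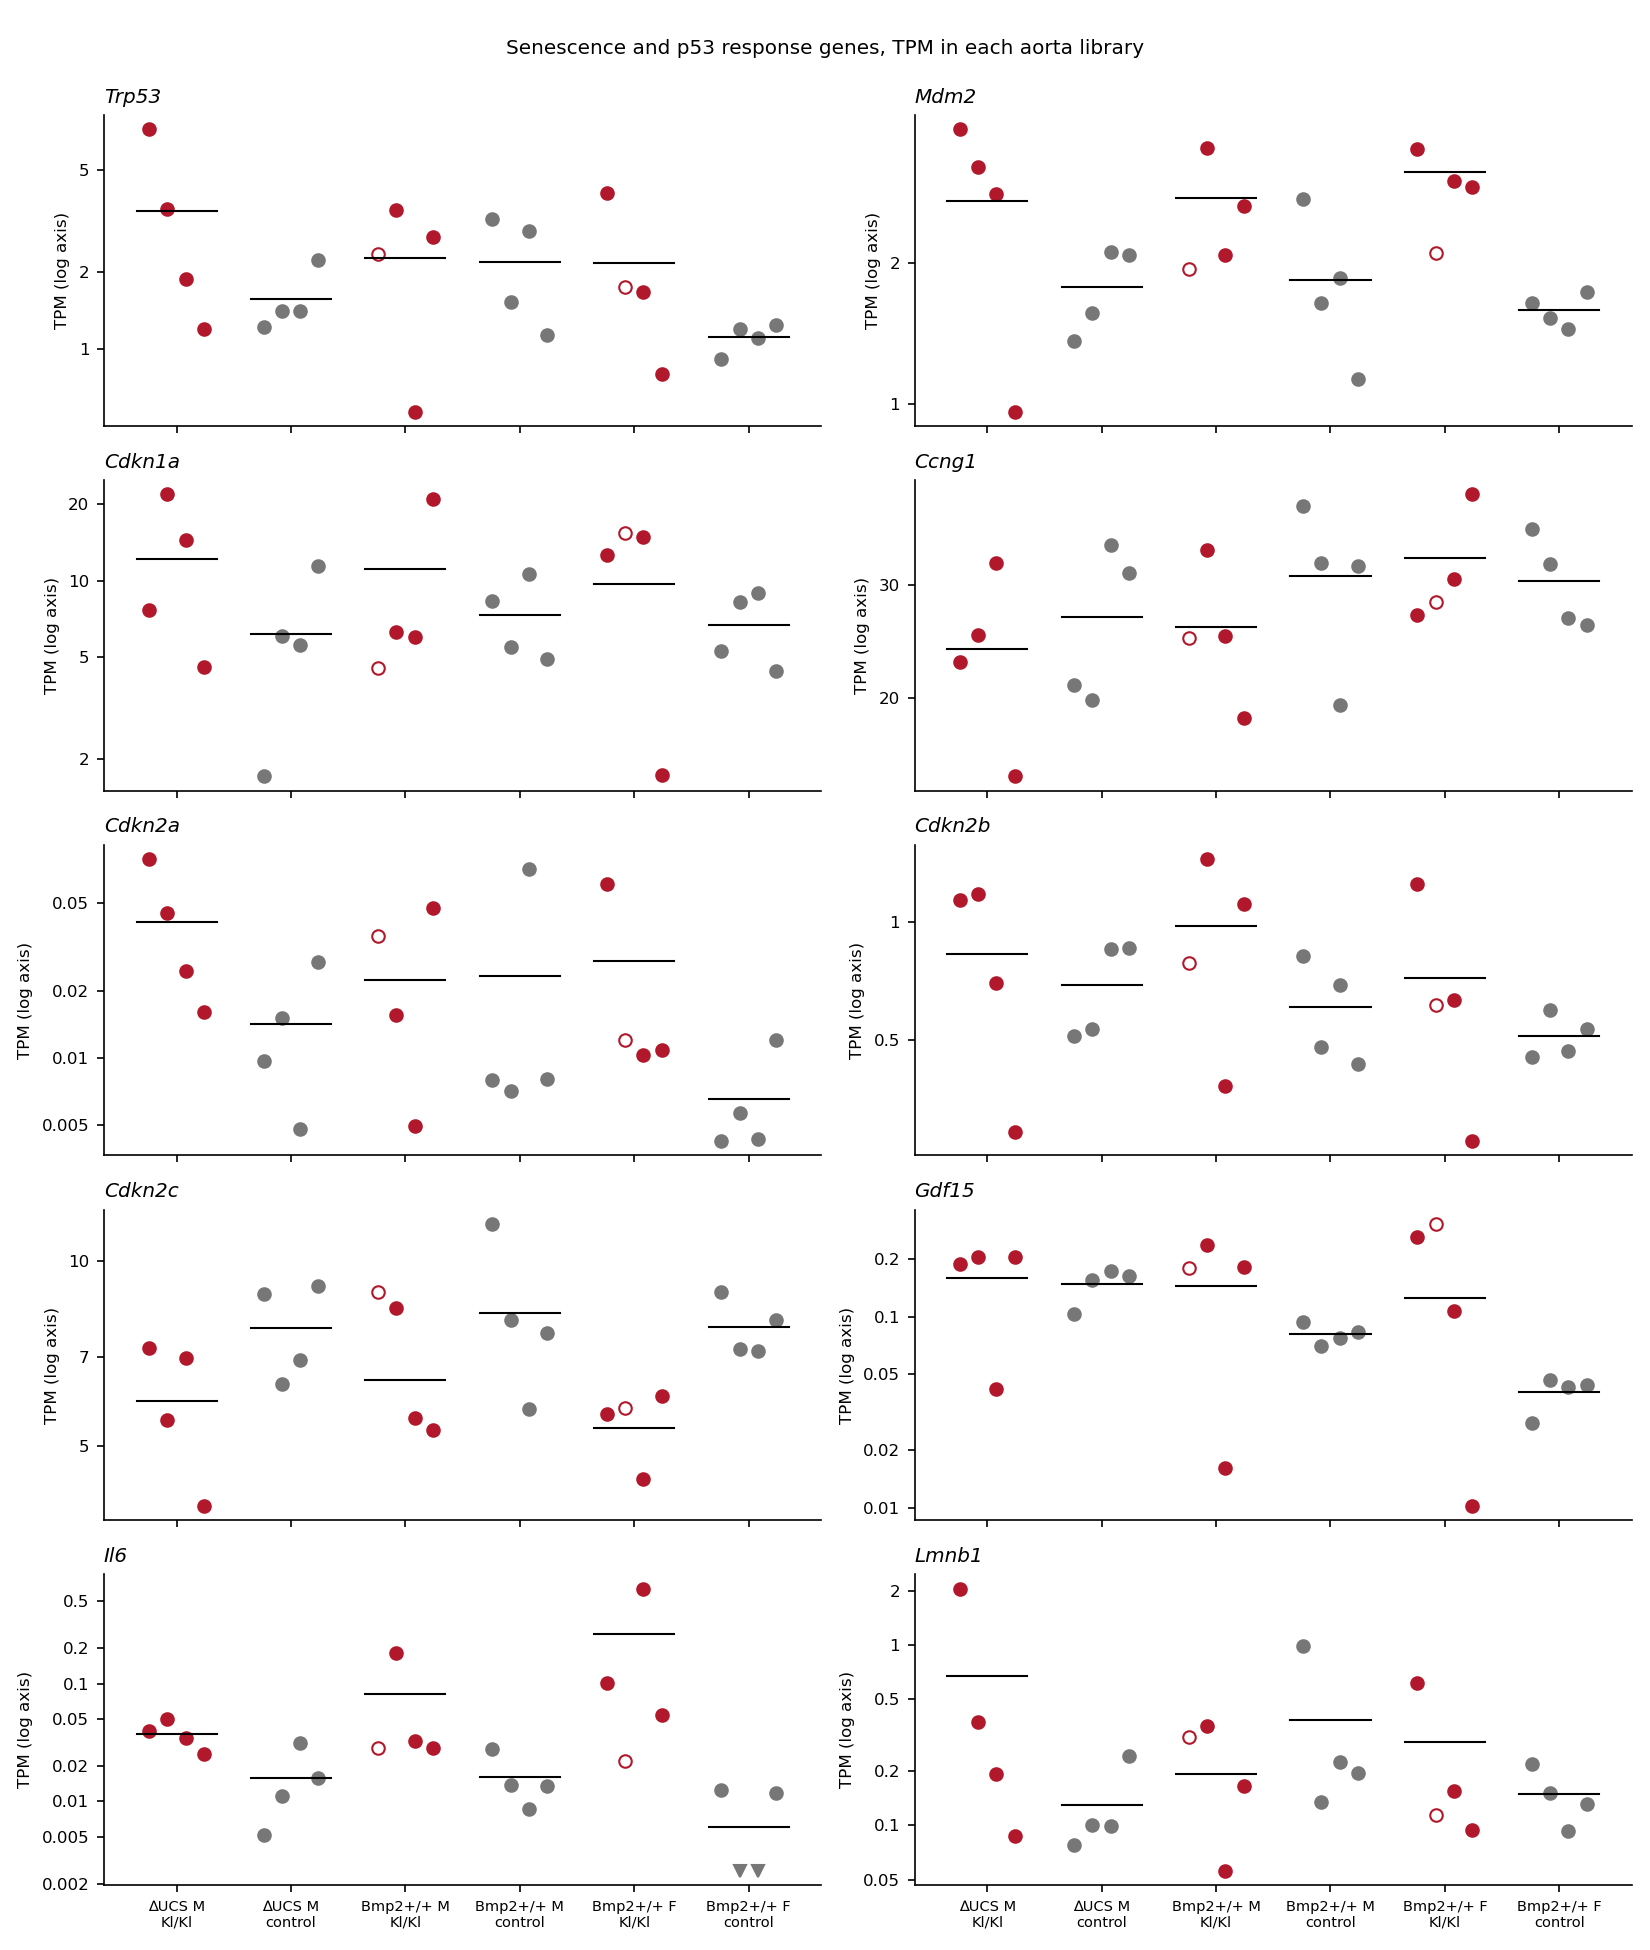
Deposited TPM (logarithmic axis) of the 10 genes in each library, with groups from left to right as Kl/Kl and control ∆UCS males, Bmp2+/+ males and Bmp2+/+ females. Points are animals (red Kl/Kl, grey control, hollow for the 2 doubted libraries, downward triangles for 0 reads) and black lines are means of the kept libraries. Mdm2 of Kl/Kl females lies at 2.90 to 3.50 TPM, above the control females at 1.44 to 1.73 TPM, and Lmnb1 of 1 Kl/Kl ∆UCS male stands out at 2.05 TPM.

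Trp53 (ENSMUSG00000059552, mm39 chromosome 11, 69471185 to 69482700, plus strand), which encodes p53, varied more among Kl/Kl animals than among their controls. In ∆UCS males it was 7.20, 3.52, 1.88 and 1.20 TPM in Kl/Kl and 1.22, 1.41, 1.41 and 2.22 TPM in controls. In Bmp2+/+ males it was 3.48, 0.570 and 2.73 TPM in Kl/Kl, with 2.34 TPM in the doubted library, and 3.23, 1.52, 2.88 and 1.13 TPM in controls. In females it was 4.06, 1.67 and 0.800 TPM in Kl/Kl, with 1.74 TPM in the doubted library, and 0.914, 1.20, 1.10 and 1.24 TPM in controls. The groups overlapped in each background, with means of 3.45 ± 2.68 TPM in Kl/Kl and 1.56 ± 0.445 TPM in control ∆UCS males (SD, n = 4 each), and of 2.18 ± 1.69 TPM in Kl/Kl (SD, n = 3) and 1.11 ± 0.145 TPM in control females (SD, n = 4). The limma log2 change was 0.82 (SE 0.57, adjusted p = 0.491) in ∆UCS males, -0.21 (SE 0.62, adjusted p = 0.96) in Bmp2+/+ males and 0.64 (SE 0.61, adjusted p = 0.546) in females. The 95% intervals, -0.36 to 2.01, -1.51 to 1.09 and -0.64 to 1.92, each include a log2 change of 1 for Trp53.

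Mdm2 (ENSMUSG00000020184, mm39 chromosome 10, 117524780 to 117546664, minus strand) encodes the ubiquitin ligase that holds p53 down and is itself a p53 target. Female aortas held 3.50, 2.98 and 2.90 TPM in Kl/Kl, with 2.10 TPM in the doubted library, and 1.64, 1.52, 1.44 and 1.73 TPM in controls. Every Kl/Kl female, the doubted one included, lay above every control female. Among Bmp2+/+ males it reached 3.52, 2.08 and 2.64 TPM in Kl/Kl, with 1.94 TPM in the doubted library, and 2.74, 1.64, 1.85 and 1.13 TPM in controls. Values in ∆UCS males were 3.85, 3.20, 2.80 and 0.961 TPM in Kl/Kl and 1.36, 1.56, 2.11 and 2.08 TPM in controls. In ∆UCS males 3 of 4 Kl/Kl libraries exceeded all controls and replicate 4 was below them all. The limma log2 change was 0.94 in females (SE 0.36, 95% interval 0.19 to 1.68, unadjusted p = 0.0165, adjusted p = 0.158), 0.52 in Bmp2+/+ males (SE 0.36, adjusted p = 0.733) and 0.45 in ∆UCS males (SE 0.33, adjusted p = 0.516). With all 24 libraries it was 0.80 in females (SE 0.32, adjusted p = 0.342), and median-of-ratios scaling gave 0.41 (SE 0.18, adjusted p = 0.226). Fitting the female groups alone gave an adjusted p of 0.0354, in a fit that called 4.56% of 17646 genes. Of all tested genes, 27.0% lay higher in every Kl/Kl female than in every control female, or 10.5% with the doubted female counted.

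Cdkn1a (ENSMUSG00000023067, mm39 chromosome 17, 29309950 to 29319702, plus strand) encodes p21, the cyclin-dependent kinase inhibitor through which p53 arrests the cell cycle. Its promoter is shown because it is the classical p53 target of the set. The window of RefSeq GRCm38.p6, chr17:29090879-29090978, plus strand, comes from the C57BL/6J reference and not from the strain of these mice. Capitals mark a pair of p53 core letters, CATGNNNNNNCATG, 48 to 35 bases before 1 of the 2 annotated starts of Cdkn1a:
Cdkn1a: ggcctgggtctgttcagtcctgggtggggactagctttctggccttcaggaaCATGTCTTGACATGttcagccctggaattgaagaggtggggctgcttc
These letters, searched on both strands in the 250 bases before each start, occur in 0.49% of 32851 promoter windows and in 1 of the 13 windows of the 9 members searched. The window of the other Cdkn1a start does not hold them. The match describes the letters only.

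Cdkn1a was 7.70, 21.9, 14.5 and 4.57 TPM in Kl/Kl ∆UCS males and 1.70, 6.09, 5.61 and 11.4 TPM in control ∆UCS males. The Bmp2+/+ males had 6.29, 6.03 and 21.0 TPM in Kl/Kl, with 4.54 TPM in the doubted library, and 8.31, 5.50, 10.6 and 4.92 TPM in controls. Among females it stood at 12.6, 14.9 and 1.72 TPM in Kl/Kl, with 15.4 TPM in the doubted library, and 5.30, 8.23, 8.96 and 4.41 TPM in controls. The groups overlapped in each background, since 2 ∆UCS males, 1 Bmp2+/+ male and 2 females among the kept Kl/Kl animals exceeded all their controls and the others did not. The mean was highest in Kl/Kl ∆UCS males (12.2 ± 7.69 TPM, n = 4) and lowest in control ∆UCS males (6.20 ± 3.99 TPM, n = 4), a ratio of 1.97 over the 6 groups. The limma log2 change was 1.00 (SE 0.67, 95% interval -0.40 to 2.40, adjusted p = 0.481) in ∆UCS males, 0.44 (SE 0.73, 95% interval -1.10 to 1.97, adjusted p = 0.917) in Bmp2+/+ males and 0.10 (SE 0.72, 95% interval -1.41 to 1.61, adjusted p = 0.946) in females. After median-of-ratios scaling the female value was -0.44, so no direction is read from it.

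Ccng1 (ENSMUSG00000020326, mm39 chromosome 11, 40639379 to 40646139, minus strand), the p53 target that encodes cyclin G1, was the least variable member, with a ratio of 1.38 between the highest and the lowest group mean. It averaged 23.9 ± 7.15 TPM in Kl/Kl ∆UCS males and 26.8 ± 7.41 TPM in control ∆UCS males (SD, n = 4 each). The Bmp2+/+ males averaged 25.9 ± 7.73 TPM in Kl/Kl (n = 3) and 31.0 ± 8.42 TPM in controls (n = 4), and in females 33.1 ± 7.57 TPM in Kl/Kl (n = 3) and 30.5 ± 5.06 TPM in controls (n = 4). All pairs of groups overlapped. The log2 changes were -0.17 (SE 0.28), -0.28 (SE 0.31) and 0.11 (SE 0.31) in the same order of backgrounds, with limma adjusted p of 0.759, 0.855 and 0.852. Median-of-ratios scaling gave -0.53, -0.43 and -0.43, and none of these passed the test.

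Gdf15 (ENSMUSG00000038508, mm39 chromosome 8, 71082043 to 71085107, minus strand), a stress-induced cytokine gene and p53 target, rested on 1 to 41 estimated reads per library. In females it was 0.261, 0.107 and 0.0102 TPM in Kl/Kl, with 0.307 TPM in the doubted library, and 0.0277, 0.0467, 0.0427 and 0.0440 TPM in controls. In Bmp2+/+ males it was 0.239, 0.0162 and 0.182 TPM in Kl/Kl, with 0.180 TPM in the doubted library, and 0.0939, 0.0703, 0.0777 and 0.0831 TPM in controls. Among ∆UCS males it stood at 0.188, 0.205, 0.0421 and 0.205 TPM in Kl/Kl and 0.104, 0.156, 0.173 and 0.164 TPM in controls. In each background 1 Kl/Kl animal (replicate 4 in females, replicate 3 in both groups of males) lay below all controls and the kept others lay above them. The limma log2 change was 0.53 (SE 0.38, adjusted p = 0.415) in females, 0.33 (SE 0.38, adjusted p = 0.866) in Bmp2+/+ males and 0.00 (SE 0.35, 95% interval -0.73 to 0.74) in ∆UCS males. With all 24 libraries the female value was 0.78 (SE 0.36, adjusted p = 0.364).

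Cdkn2a (ENSMUSG00000044303, mm39 chromosome 4, 89192708 to 89212891, minus strand) encodes p16Ink4a and, from another reading frame, p19Arf, which blocks Mdm2. The table gives 1 value for the gene, so the products cannot be told apart. It was close to the limit of detection, with 2 to 63 estimated reads for each animal. It reached 0.0787, 0.0451, 0.0245 and 0.0161 TPM in Kl/Kl ∆UCS males (47, 29, 23 and 15 reads) and 0.00964, 0.0152, 0.00478 and 0.0270 TPM in their controls (11, 16, 4 and 25 reads). Female aortas held 0.0610, 0.0103 and 0.0108 TPM in Kl/Kl, with 0.0120 TPM in the doubted library, and 0.00421, 0.00567, 0.00432 and 0.0120 TPM in controls. Among Bmp2+/+ males it reached 0.0156, 0.00492 and 0.0471 TPM in Kl/Kl, with 0.0353 TPM in the doubted library, and 0.00792, 0.00711, 0.0708 and 0.00803 TPM in controls. The highest value of the male controls, replicate 3, exceeded every Kl/Kl Bmp2+/+ animal of either sex. The two-sided exact permutation p was 0.114 in ∆UCS males, 0.171 in females and 0.971 in Bmp2+/+ males, or 0.286, 0.343 and 1 adjusted over 10 tests. The smallest p that 4 against 4 libraries allow is 0.0286, and 3 against 4 allow 0.0571.

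Cdkn2b (ENSMUSG00000073802, mm39 chromosome 4, 89224536 to 89229277, minus strand), the neighbour of Cdkn2a that encodes p15Ink4b, overlapped between Kl/Kl and control in each background. It averaged 0.827 ± 0.418 TPM in Kl/Kl ∆UCS males and 0.690 ± 0.194 TPM in control ∆UCS males (SD, n = 4 each). The Bmp2+/+ males averaged 0.979 ± 0.545 TPM in Kl/Kl (n = 3) and 0.607 ± 0.182 TPM in controls (n = 4), and in females 0.719 ± 0.492 TPM in Kl/Kl (n = 3) and 0.514 ± 0.0661 TPM in controls (n = 4). The Kl/Kl libraries spread more than the controls in each pair. The limma log2 changes were 0.12 (SE 0.43, adjusted p = 0.893), 0.46 (SE 0.47, adjusted p = 0.845) and 0.23 (SE 0.47, adjusted p = 0.787), and after median-of-ratios scaling those of ∆UCS males and females were -0.22 and -0.25.

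Cdkn2c (ENSMUSG00000028551, mm39 chromosome 4, 109518073 to 109524387, minus strand), which encodes p18Ink4c, had a log2 change below 0 in all 3 backgrounds under both scalings, the only one of the 8 tested members to do so. Among females it stood at 5.65, 4.42 and 6.03 TPM in Kl/Kl, with 5.77 TPM in the doubted library, and 8.92, 7.21, 7.14 and 8.03 TPM in controls. Every Kl/Kl female lay below every control female, the doubted one included, as 1.38% of all genes did without the doubted library and 0.542% with it. In ∆UCS males it was 7.23, 5.52, 6.96 and 4.00 TPM in Kl/Kl and 8.85, 6.32, 6.91 and 9.11 TPM in controls, and the groups overlapped. In Bmp2+/+ males, which also overlapped, it was 8.38, 5.56 and 5.31 TPM in Kl/Kl, with 8.92 TPM in the doubted library, and 11.5, 8.01, 5.75 and 7.65 TPM in controls.

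The limma log2 change of Cdkn2c was -0.54 in females (SE 0.26, 95% interval -1.09 to 0.01, adjusted p = 0.243), -0.41 in ∆UCS males (SE 0.24, adjusted p = 0.443) and -0.37 in Bmp2+/+ males (SE 0.27, adjusted p = 0.75). After median-of-ratios scaling the female value was -1.08 (SE 0.29, adjusted p = 0.052). Limma voom on the estimated reads gave -1.11 (SE 0.29, adjusted p = 0.0398) in females, where it called 1.16% of 22073 genes lower. That call held in 13 of 22 fits that left out 1 library (adjusted p 0.0199 to 0.208), and with all 24 libraries as labelled the adjusted p was 0.257. In the same Kl/Kl females the summed TPM of adipocyte marker genes was 143 to 229, against 219 to 519 in control females, and its part in the result was not tested. In whole aorta, fewer cells of a type and less RNA per cell cannot be told apart.

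Lmnb1 (ENSMUSG00000024590, mm39 chromosome 18, 56840885 to 56886497, plus strand), which encodes lamin B1 and is commonly lost in senescent cells, was not lower in Kl/Kl by any test. Values in ∆UCS males were 2.05, 0.375, 0.192 and 0.0872 TPM in Kl/Kl and 0.0780, 0.101, 0.0999 and 0.243 TPM in controls. The Bmp2+/+ males had 0.357, 0.0560 and 0.166 TPM in Kl/Kl, with 0.309 TPM in the doubted library, and 0.983, 0.134, 0.226 and 0.196 TPM in controls. In females it was 0.614, 0.156 and 0.0942 TPM in Kl/Kl, with 0.114 TPM in the doubted library, and 0.220, 0.151, 0.0927 and 0.131 TPM in controls. The groups overlapped in each background, and single animals set the highest values. The limma log2 change was 1.13 in ∆UCS males (SE 0.61, 95% interval -0.16 to 2.41, adjusted p = 0.406), -0.69 in Bmp2+/+ males (SE 0.67, 95% interval -2.09 to 0.72, adjusted p = 0.833) and 0.43 in females (SE 0.66, adjusted p = 0.719). Without Kl/Kl ∆UCS male replicate 1 the value in ∆UCS males was 0.41 (SE 0.51, adjusted p = 0.926).

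The animals high in Lmnb1 were also high in genes of dividing cells. Kl/Kl ∆UCS male replicate 1 had a summed 115 TPM of 20 proliferation genes, against 15.9 to 27.6 TPM in the other Kl/Kl ∆UCS males and 9.14 to 20.4 TPM in their controls. Its T and NK cell markers summed to 106 TPM, against 0.905 to 8.99 TPM in the other Kl/Kl ∆UCS males, and its Trp53 was the highest of all libraries. Control Bmp2+/+ male replicate 1, highest in Lmnb1 among the controls, had 64.9 TPM of proliferation genes and 27.3 TPM of T and NK cell markers. Without Kl/Kl ∆UCS male replicate 1 the log2 change of Trp53 in ∆UCS males was 0.38 (SE 0.56, adjusted p = 0.954). The part of those cells in the levels of Lmnb1 and Trp53 was not tested.

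**Figure D2:**
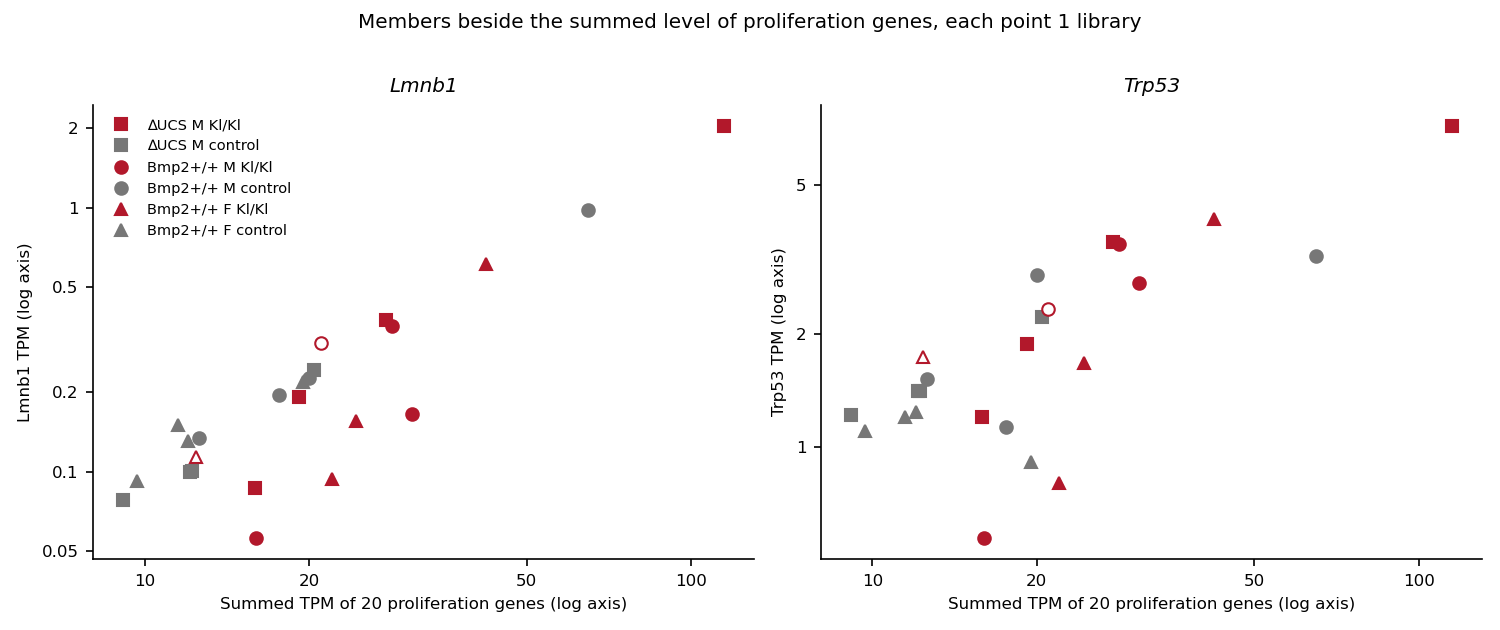
Lmnb1 (left) and Trp53 (right) in TPM against the summed TPM of 20 proliferation genes, both axes logarithmic, 1 point per library (red Kl/Kl, grey control; squares ∆UCS males, circles Bmp2+/+ males, triangles females; hollow for the doubted libraries). The library with the highest proliferation sum, 115 TPM in a Kl/Kl ∆UCS male, also has the highest Lmnb1 (2.05 TPM) and Trp53 (7.20 TPM).

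Il6 (ENSMUSG00000025746, mm39 chromosome 5, 30218112 to 30224980, plus strand), the interleukin 6 gene and a core part of the secretory phenotype, was a rare transcript with 0 to 148 estimated reads per library. Its promoter is shown because Il6 is the member whose Kl/Kl and control groups stood apart in both Bmp2+/+ backgrounds. In the RefSeq GRCm38.p6 window chr5:30012864-30013113, plus strand, capitals mark from left to right TGAGTCA (AP-1, 249 to 243 bases before the start), TTGTGCAAT (C/EBP, 128 to 120 bases before) and GGGANNTTCC (NF-kappaB, 44 to 35 bases before):
Il6: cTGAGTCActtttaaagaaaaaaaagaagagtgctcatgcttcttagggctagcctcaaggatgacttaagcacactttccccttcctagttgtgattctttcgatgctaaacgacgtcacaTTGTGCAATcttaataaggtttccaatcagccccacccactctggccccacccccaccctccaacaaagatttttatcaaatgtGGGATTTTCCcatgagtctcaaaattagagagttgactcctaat
On either strand these letters occur in 4.46%, 0.167% and 1.21% of 32851 windows. They are a description of the sequence and show no binding.

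Il6 was 0.102, 0.640 and 0.0544 TPM in Kl/Kl females (36, 148 and 12 reads), with 0.0221 TPM in the doubted library, and 0.0124, 0, 0 and 0.0118 TPM in control females (3, 0, 0 and 3 reads). In Bmp2+/+ males it was 0.183, 0.0325 and 0.0286 TPM in Kl/Kl (36, 9 and 6 reads), with 0.0283 TPM in the doubted library, and 0.0279, 0.0139, 0.00867 and 0.0135 TPM in controls (6, 4, 2 and 4 reads). Among ∆UCS males it stood at 0.0394, 0.0503, 0.0344 and 0.0252 TPM in Kl/Kl (8, 11, 11 and 8 reads) and 0.00515, 0.0112, 0.0316 and 0.0159 TPM in controls (2, 4, 9 and 5 reads). In both Bmp2+/+ backgrounds every Kl/Kl library lay above every control, with and without the doubted libraries, though in males the lowest Kl/Kl and the highest control library had 6 reads each. In ∆UCS males 1 control exceeded 1 Kl/Kl animal. The order of group means was Kl/Kl females, Kl/Kl Bmp2+/+ males, Kl/Kl ∆UCS males, control Bmp2+/+ males, control ∆UCS males and control females, and the kept libraries of each group overlapped those of its neighbour in that order.

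The exact permutation test of mean Il6 TPM gave its smallest possible p for 3 against 4 libraries, 0.0571, in females and in Bmp2+/+ males, and 0.0571 in ∆UCS males, each 0.19 after adjustment over 10 tests. With all 24 libraries it gave the smallest p for 4 against 4, 0.0286, in females and Bmp2+/+ males, 0.143 after adjustment. Limma voom on estimated reads gave a log2 change of 4.10 in females (SE 0.90, 95% interval 2.22 to 5.98, adjusted p = 0.0150), where it called 2.07% of 22073 genes higher. In Bmp2+/+ males it gave 1.61 (SE 0.84, adjusted p = 0.425) and in ∆UCS males 0.99 (SE 0.80, adjusted p = 0.559). The female call held in 20 of 22 fits that left out 1 library, and without control replicate 2 or 3, the libraries with 0 reads, the adjusted p was 0.0906 and 0.0620. Without the highest Kl/Kl female, replicate 3, the change was 3.13 (adjusted p = 0.0287), and with all 24 libraries it was 3.55 (SE 0.90, adjusted p = 0.24). The change in females minus that in Bmp2+/+ males was 2.49 (SE 1.19, adjusted p = 1.0), so a difference between the sexes was not shown.

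Counted over the 10 members, Kl/Kl and control stood apart for Mdm2, Il6 and Cdkn2c in females, where 28.4% of all genes did so (11.1% with the doubted libraries). Il6 alone stood apart in Bmp2+/+ males, where 6.05% of genes did (1.46% with the doubted libraries), and no member in ∆UCS males, where 7.61% did. Without the doubted libraries the members' counts of 3, 1 and 0 of 10 were close to these shares. With all 24 libraries the counts were again 3, 1 and 0 of 10, beside lower shares of 11.1% and 1.46%, and 7.58% in ∆UCS males. The shares cover genes that passed the filter, which Il6 and Cdkn2a did not. By limma 1 of 8 members, Mdm2, had an unadjusted p under 0.05 in females, where 21.2% of all tested genes did. It was 0 of 8 in Bmp2+/+ males and in ∆UCS males, where 9.05% and 14.1% of genes did. By limma voom 3 of 10 did in females (Mdm2, Il6 and Cdkn2c), against 17.6% of genes, 1 in Bmp2+/+ males (Mdm2), against 13.1%, and 1 in ∆UCS males (Cdkn2c), against 17.2%. In a fit of all 24 libraries, limma passed 0 of 21385 genes (0%) in each of these comparisons, while an unadjusted p under 0.05 was found for 2921 genes in females, 1195 in Bmp2+/+ males and 2872 in ∆UCS males. In that fit 3 of 8 members had such a p in females (Mdm2, Cdkn2c and Gdf15), against 13.7% of genes. The count was 0 of 8 in Bmp2+/+ males, against 5.59%, and 0 of 8 in ∆UCS males, against 13.4%.

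**Figure D3:**
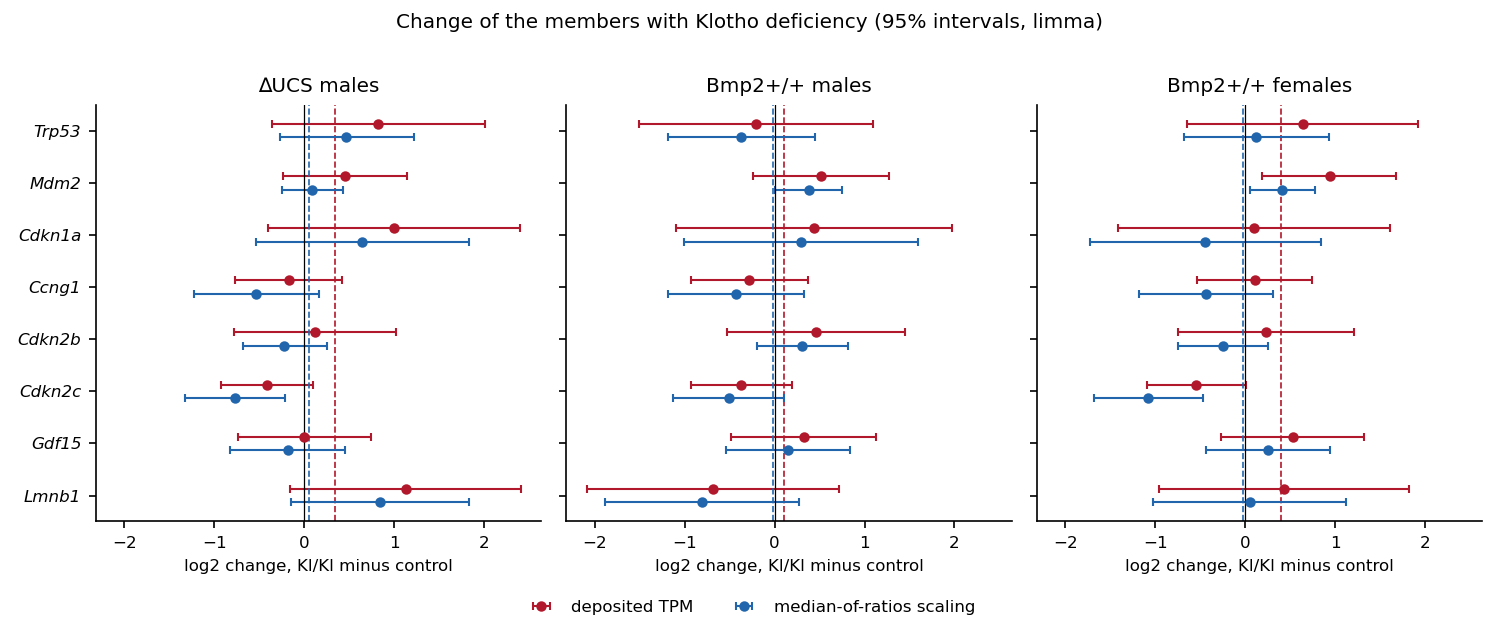
Log2 change with its 95% interval for the 8 tested members, Kl/Kl against control, in each background, from limma on deposited TPM (red) and after median-of-ratios scaling (blue). Dashed lines are medians over all genes. Mdm2 in females has the red interval farthest above 0 (0.19 to 1.68), and the red points of Cdkn2c lie below 0 in all 3 panels.

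The next comparison asks whether ∆UCS changes these genes. Among control males no member differed by limma, with log2 changes of ∆UCS against Bmp2+/+ between -1.18 for Lmnb1 (SE 0.70, 95% interval -2.65 to 0.28) and 0.53 for Gdf15 (SE 0.40, 95% interval -0.31 to 1.37), both with an adjusted p of 0.986. Gdf15 was 0.104, 0.156, 0.173 and 0.164 TPM in control ∆UCS males (18 to 25 reads) and 0.0939, 0.0703, 0.0777 and 0.0831 TPM in control Bmp2+/+ males (8 to 11 reads), so these groups stood apart. Of all genes 1.57% did so in either direction, and 0.296% with ∆UCS higher, the direction of Gdf15. Limma voom gave Gdf15 a log2 change of 1.29 (SE 0.74, adjusted p = 0.869). All ∆UCS libraries belonged to 1 of the 2 sets into which the library names fall, and all female libraries to the other. The fit held the set as a term. Among Kl/Kl males the ∆UCS values ran from -0.29 for Mdm2 to 0.63 for Lmnb1, each with an adjusted p of 1, and no member stood apart, against 1.32% of all genes. At an unadjusted p under 0.05 limma gave 671 genes among controls and 433 among Kl/Kl males.

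The Klotho change in ∆UCS males minus that in Bmp2+/+ males was largest for Lmnb1, at 1.81 (SE 0.91, 95% interval -0.09 to 3.72, unadjusted p = 0.0609, limma adjusted p = 0.978). For Trp53 it was 1.04, and every member had an adjusted p of at least 0.978. The change in females minus that in Bmp2+/+ males was 1.12 for Lmnb1, 0.85 for Trp53 and 0.42 for Mdm2, with an adjusted p of 0.981 for each of the 8 members. Limma called 0% of genes in both tests, with 629 and 589 genes at an unadjusted p under 0.05. All ∆UCS libraries were of 1 library set, all females of the other and the Bmp2+/+ males of both. The set term takes the set to act alike on Kl/Kl and control, so a set-dependent Klotho change could not be told apart in either.

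Around the members, 33 further p53 targets were tested, and 0 passed in any Klotho comparison by limma on TPM or by limma voom, while 8 in ∆UCS males, 4 in Bmp2+/+ males and 7 in females had an unadjusted p under 0.05. Over all genes the shares at that threshold were 14.1%, 9.05% and 21.2% in the same order, and the counts of the lists that follow are read beside them. Their median log2 change was 0.36 in ∆UCS males, 0.30 in Bmp2+/+ males and 0.45 in females, beside 0.34, 0.10 and 0.40 over all genes. After median-of-ratios scaling the medians were 0.04, 0.16 and 0.01. The genes nearest to the threshold differed by background. In ∆UCS males these were Ddit4, an inhibitor of mTORC1, at 77.7 ± 45 TPM in Kl/Kl and 14.1 ± 10.2 TPM in controls (SD, n = 4 each, log2 change 2.34, SE 0.80, adjusted p = 0.198), and Perp, a desmosome-associated apoptosis effector, at 2.72 (SE 0.97, adjusted p = 0.221). In Bmp2+/+ males they were the kinase gene Plk2, at 1.08 (SE 0.40, adjusted p = 0.375), and Trp53inp1, at 1.87 (SE 0.74, adjusted p = 0.412). In females they were Polk, a translesion polymerase gene, at 0.82 (SE 0.26, adjusted p = 0.1), and the mitophagy gene Spata18, at 1.32 (SE 0.47, adjusted p = 0.137).

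For the lists of this paragraph and the next, limma on TPM and limma voom both called 0 genes, and counts at an unadjusted p under 0.05 are given for ∆UCS males, Bmp2+/+ males and females in that order. Of the kinases and other regulators of p53, 13 of 14 were tested and 0 passed (1, 0 and 2 unadjusted), with medians of 0.52 in ∆UCS males, 0.00 in Bmp2+/+ males and 0.38 in females. The DNA damage kinases Atr and Atm had values of 0.74 (adjusted p = 0.174) and 0.72 (adjusted p = 0.219) in females. Of 16 other cell-cycle inhibitors, G1 cyclins, kinases and pocket proteins 0 passed (1, 0 and 1), with medians of 0.55, 0.07 and 0.61. Cdkn2d, which encodes the remaining member of the INK4 family, p19Ink4d, was at 1.01 (adjusted p = 0.199) in females, opposite in sign to Cdkn2c. Of 14 nuclear lamina and chromatin genes 0 passed (4, 0 and 3), with medians of 0.67, 0.19 and 0.59. Hmgb2, which encodes a chromatin protein abundant in dividing cells, had the value nearest to the threshold in ∆UCS males, at 1.81 (adjusted p = 0.285).

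Of 20 proliferation genes 19 were tested and 0 passed (8, 0 and 2). In ∆UCS males and in females 19 of 19 values lay above 0, with medians of 1.25 and 1.02 (0.34 and 0.40 over all genes). In Bmp2+/+ males 4 of 19 did, with a median of -0.69 (0.10 over all genes). There the proliferation sum was 16 to 30.8 TPM in Kl/Kl (median 28.3) and 12.6 to 64.9 TPM in controls (median 18.8). The medians of the sums thus ran the other way, and control replicate 1 held the 64.9 TPM. Among Kl/Kl ∆UCS males replicate 1 stood apart, with a proliferation sum of 115 TPM (15.9 to 27.6 TPM in the others) and 106 TPM of T and NK cell markers (0.905 to 8.99 TPM in the others), and the part of those cells was not tested. Pcna, the sliding clamp of DNA replication, was at 1.00 (adjusted p = 0.268) in ∆UCS males, and 1.02 (adjusted p = 0.182) in females. Top2a, a topoisomerase of dividing cells, was at -1.27 in Bmp2+/+ males. Among control males the ∆UCS median was -1.28, and Bmp2+/+ control replicate 1 held the highest proliferation sum of those 8 animals.

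Among the lists of senescence and p53 genes, calls were found for the secretory phenotype of senescent cells. Of 31 genes tested, 12 rose and 0 fell in Kl/Kl females, 5 rose and 0 fell in Kl/Kl Bmp2+/+ males, and 4 rose and 0 fell in Kl/Kl ∆UCS males, where 2.42%, 0.668% and 0.466% of all genes rose. The median log2 changes were 1.11, 0.78 and 0.87. Timp1, Mmp12 and Cxcl2 rose in all 3 backgrounds. Timp1, an inhibitor of matrix proteases, averaged 8.46 ± 2.88 TPM in Kl/Kl females (n = 3) and 0.478 ± 0.146 TPM in control females (n = 4), a log2 change of 3.86 (SE 0.44, adjusted p = 2.44e-05), with 3.19 (SE 0.44, adjusted p = 0.000478) in Bmp2+/+ males and 2.86 (SE 0.40, adjusted p = 0.000892) in ∆UCS males. Cxcl2, a neutrophil-attracting chemokine gene, averaged 1.54 ± 0.737 TPM in Kl/Kl females (n = 3) and 0.0395 ± 0.0268 TPM in control females (n = 4), with log2 changes of 3.48 (SE 0.46), 3.52 (SE 0.47) and 2.55 (SE 0.43) in the same order.

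Mmp12 encodes the elastase of macrophages. It averaged 29.2 ± 7.76 TPM in Kl/Kl females (n = 3) and 0.187 ± 0.304 TPM in control females (n = 4), a log2 change of 7.13 (SE 0.50, adjusted p = 2.04e-07). It was 15.5 ± 5.3 TPM in Kl/Kl Bmp2+/+ males (n = 3) and 0.0313 ± 0.0205 TPM in their controls (n = 4), and 7.97 ± 3.15 TPM in Kl/Kl ∆UCS males and 0.0384 ± 0.0286 TPM in their controls (n = 4 each). The chemokine gene Ccl8 rose in females (5.17, SE 0.67) and in ∆UCS males (3.16, SE 0.62), and Cxcl1 in Bmp2+/+ males (2.42, SE 0.51) and females. In females Ccl2, Ccl7, Tnf, Il1b, Hgf, Mmp3 and Mmp13 also rose, and Mmp3 rose in Bmp2+/+ males. Many of these are products of macrophages as well as of senescent cells.

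Macrophage markers moved with this list. Of 10 macrophage genes 8 rose in Kl/Kl females, 5 in Kl/Kl Bmp2+/+ males and 4 in Kl/Kl ∆UCS males, and none was at 0 reads. Their summed TPM was 197 to 314 in Kl/Kl females against 22 to 31.4 in controls, 148 to 328 in Kl/Kl Bmp2+/+ males against 22 to 72.3 in controls, and 95.7 to 207 in Kl/Kl ∆UCS males against 25.8 to 53.3 in controls. The doubted male library had 42.8 TPM and the doubted female library 36.3 TPM. Neutrophil markers rose for 2, 1 and 1 of 6 genes. Of 5 fibroblast markers 0 were called by limma on TPM or voom (4, 1 and 1 at an unadjusted p under 0.05), and their sum was 78.3 to 92.4 TPM in Kl/Kl females against 31.2 to 56.2 TPM in controls, 44.7 to 84.8 TPM in Kl/Kl Bmp2+/+ males against 31.4 to 58.7 TPM in controls, and 40.1 to 83.6 TPM in Kl/Kl ∆UCS males against 26.7 to 51.3 TPM in controls. Cardiomyocyte markers (0 of 6 called by either, and 0, 0 and 0 unadjusted) had a median sum of 2350 TPM in Kl/Kl females against 214 TPM in controls, 639 TPM in Kl/Kl Bmp2+/+ males against 783 TPM in controls, and 1170 TPM in Kl/Kl ∆UCS males against 294 TPM in controls. The part of these cells in the secretory genes and in Il6 was not tested. Airway epithelium markers, which do not belong to the aorta, summed to 2572 to 3596 TPM in Kl/Kl females against 274 to 1358 in controls, to 565 to 2710 in Kl/Kl Bmp2+/+ males against 450 to 1926 in controls, and to 1035 to 2637 in Kl/Kl ∆UCS males against 6.75 to 926 in controls, and their part was not tested either. Without Kl/Kl Bmp2+/+ male replicate 4 the secretory count in those males was 2, without replicate 3 it was 12, and without Kl/Kl female replicate 1 the female count was 8. Limma voom called 11, 11 and 4 in Bmp2+/+ males, females and ∆UCS males, and median-of-ratios scaling 10, 12 and 4. A fit of all 24 libraries as labelled called 0 in each background. Neither doubted library is from a ∆UCS group, but all groups share 1 estimate of the spread in that fit. Fitted alone, the ∆UCS groups gave calls for 0.348% of 18078 genes.

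**Figure D4:**
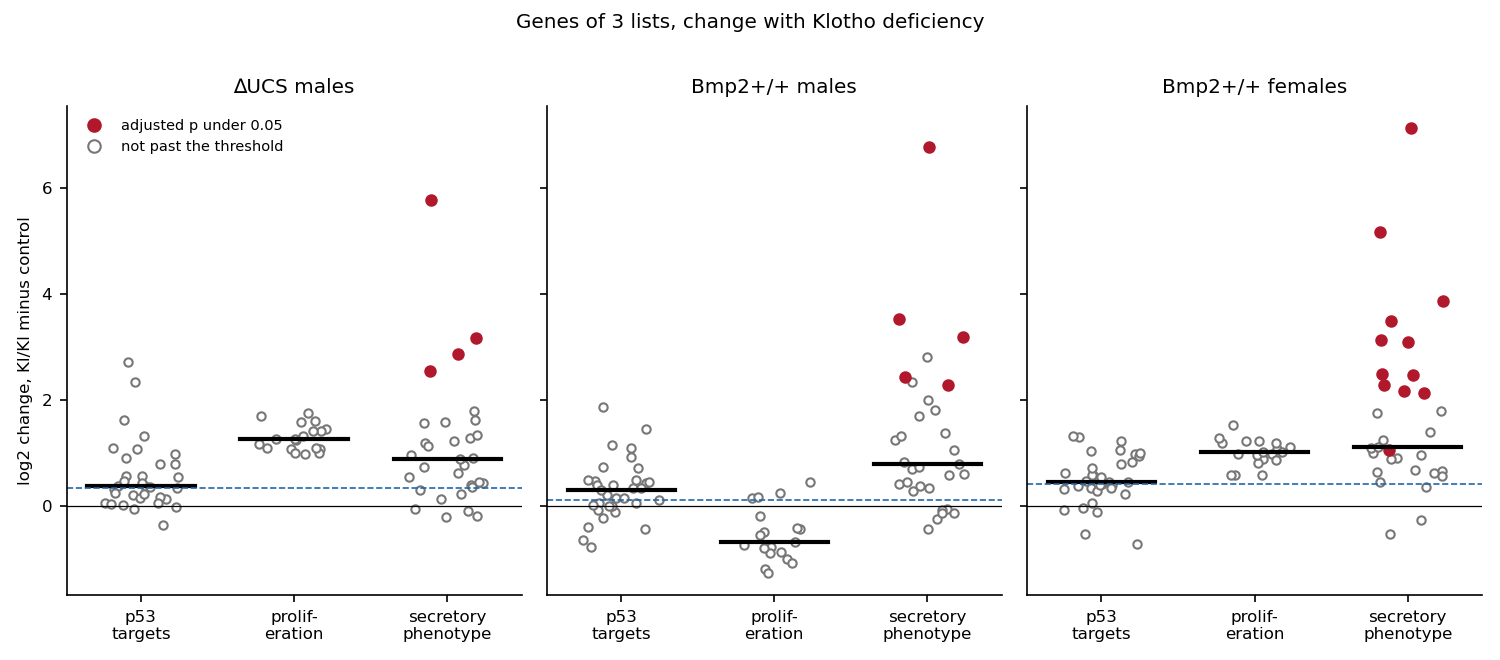
Log2 change (limma on deposited TPM) of each tested gene of the p53 target, proliferation and secretory lists, Kl/Kl against control, in the 3 backgrounds. Filled red points passed an adjusted p of 0.05, black lines are list medians and dashed blue lines medians over all genes. Filled points appear in the secretory panel, 4 in ∆UCS males, 5 in Bmp2+/+ males and 12 in females.

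Signalling around interleukin 6 and Gdf15 was read from another pair of lists. Of 15 tested genes of interleukin 6 signalling 0 passed by limma on TPM in any background (2, 3 and 3 at an unadjusted p under 0.05), with medians of 0.53 in ∆UCS males, 0.36 in Bmp2+/+ males and 0.84 in females. Osmr, the oncostatin M receptor gene, was at 1.46 (SE 0.40, adjusted p = 0.0628) in females and 1.24 (SE 0.41, adjusted p = 0.27) in Bmp2+/+ males, and after median-of-ratios scaling it passed in both, at 0.97 (adjusted p = 0.0436) and 1.12 (adjusted p = 0.0323). Limma voom called Osmr higher and Cebpb, a related transcription factor gene, lower in both. Cebpd, a transcription factor gene induced by interleukin 6, was at 1.50 (adjusted p = 0.264) in ∆UCS males. Of 13 tested genes of the integrated stress response, a pathway that also induces Gdf15, 0 passed by limma on TPM or voom (4, 1 and 2 unadjusted), with medians of 0.75, 0.47 and 0.09. Its stress-induced factor Atf3 was at 1.50 (SE 0.40, adjusted p = 0.0566) in females and 1.36 (SE 0.41, adjusted p = 0.191) in Bmp2+/+ males.

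The members did not vary as 1 group across libraries. The following are Pearson correlations of log2 values after median-of-ratios scaling over the 22 libraries, which share groups and depth, given as a description. Trp53 ran with Lmnb1 (0.73) and against Ccng1 (-0.79), Cdkn2c ran with Ccng1 (0.77), and Mdm2 was weakly related to Trp53 (-0.24) and Cdkn1a (-0.17). The gene most like Lmnb1 was Mcm2, which encodes a subunit of the replicative helicase (0.97), followed by Bcl11b, a T cell transcription factor gene (0.96), and Kifc1, a mitotic kinesin gene (0.95). Trp53 was closest to Sirt7 (0.97), Dcaf15 and Tmc6 (0.96 each), and Cdkn2c to Oxct1 and Suox (0.92 each) and Ghitm (0.91), which encode mitochondrial proteins. Mdm2 was closest to Stag1 (0.93), a cohesin subunit gene, and Ccng1 to Tcaim, Idh1 and Lrrc39 (0.91 each). Gdf15, Cdkn1a and Cdkn2b had no gene so close, with best values of 0.86 for Dap, 0.79 for Ube2g2 and 0.77 for Foxj2.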

How the data were processed

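RNA of 24 aortas was sequenced. Per the labels' protocols, tissue was flash frozen and polyA RNA from a miRNeasy extraction went into strand-specific libraries. The authors deposited 1 table of TPM, for which the submitters' processing notes name Partek and the mm39 build. Aligner, annotation and use of strand were not given in the sources used here, so values of overlapping or near-identical genes are uncertain. Each deposited TPM column sums to 482073, and TPM was divided by genomic span. The lowest values stand for 0 reads plus 0.0001 read, which let reads per gene be recovered. Of 256614 values between 0.5 and 20 reads, 73% came out within 0.05 of a whole number. All 24 columns were used.

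Genes with at least 0.1 TPM in at least 4 of 22 libraries (21248 genes) were tested on log2(TPM + 0.1) with limma 3.58.1 (trend) in R 4.3.3. The pseudocount shrinks the fold change of genes with low TPM. The model had 6 group means plus a term for the library set, inferred from the spelling of library names, and p-values were adjusted by Benjamini-Hochberg. Limma voom used genes with at least 10 recovered reads in at least 4 libraries (22073 genes). It is the count model, and it called 714 genes for Kl/Kl females, 337 for Bmp2+/+ males that were Kl/Kl and 268 for the Kl/Kl ∆UCS group. Cdkn2a and Il6, below the filter, had a two-sided exact permutation test of mean TPM (scipy 1.17.1). Errors are SD over animals, the labels giving 1 library per animal.

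The members, gene lists and tests were chosen with earlier results of these data known, and so was the choice to leave out 2 libraries. All 10 members are described. From each list up to 4 called genes with the largest change are named, or up to 2 with the smallest p where none passed, and the other called genes of the secretory list were named after their values were seen. Other settings were all 24 libraries, a pseudocount of 1, a filter at 1 TPM, no filter, median-of-ratios scaling, no set term, age, a replicate block, the compared groups alone, either library set by itself and omission of single libraries. The procedure was tested on simulated counts for Kl/Kl against control in Bmp2+/+ males, with the same dispersion for every gene. The simulation did not cover the other comparisons or a spread that differs between genes.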

Additional observations from a re-analysis of the deposited data

Results flagged for a closer look

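In 5 of 40 groups of 4 libraries, 1 library of a member stood farther from the rest than Dixon's 95% critical ratio allows. Chance gives this mark to about 1 in 20 groups of normally distributed values. TPM need not be so distributed, and the groups reuse the same libraries over the members, so the count is a description only. Of the 5 marked groups, 3 concern Lmnb1. Its highest value among Kl/Kl ∆UCS males was 2.05 TPM, with 0.375 TPM next (ratio 0.853). Among control ∆UCS males it was 0.243 TPM, with 0.101 TPM next (ratio 0.860), and among control Bmp2+/+ males 0.983 TPM, with 0.226 TPM next (ratio 0.892). In each of these groups the same library had the highest proliferation sum and, except among control Bmp2+/+ males, the highest T and NK cell marker sum. Cdkn2a of control Bmp2+/+ males had a highest value of 0.0708 TPM, with 0.00803 TPM next (ratio 0.986). Gdf15 of Kl/Kl ∆UCS males had a lowest value of 0.0421 TPM, or 6 reads, with 0.188 TPM next (ratio 0.893).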

How the results depend on the processing

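The count of members called was 0 in every comparison by limma on TPM, and it stayed 0 under all settings in Kl/Kl Bmp2+/+ males, Kl/Kl ∆UCS males, both ∆UCS comparisons and both differences of change. In Kl/Kl females it was 1 with no filter (Il6; 2.62% of all genes called), 1 for the compared groups alone (Mdm2; 4.56%), 1 for library set 2 alone (Mdm2; 7.74%), 2 by limma voom on estimated reads (Il6 and Cdkn2c; 3.23%) and 1 by voom with a replicate block (Il6, adjusted p = 0.0217; 2.14%), against 2.45% of genes in the reported fit. Leaving out each library gave 0 to 1 on TPM, where Mdm2 passed without Kl/Kl ∆UCS male replicate 4 (adjusted p = 0.0376), and 0 to 2 by voom. Of 3237 recomputed values of the 8 tested members, 17 newly passed the threshold and 340 changed sign without passing in either fit. Il6 and Cdkn2a had no value in the reported fit, so the Il6 calls given above are not among the 17. The voom fits of all 24 libraries, with a block and with each library left out were chosen after seeing the data. With the block on TPM 0 members passed in each comparison. Same-numbered replicates correlated between -0.424 and 0.31, which gave no sign that replicate numbers pair the animals. Among females, neighbouring numbers in the library names joined a control and a Kl/Kl animal of equal age. Such numbers also joined a control and a Kl/Kl animal among Bmp2+/+ males, of equal age in some pairs and unequal age in others. A pairing by library number was not fitted.

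Over all genes the calls by limma on TPM were 142 higher and 7 lower in Kl/Kl Bmp2+/+ males, 515 and 5 in Kl/Kl females, and 99 and 13 in Kl/Kl ∆UCS males. Median-of-ratios scaling gave 235 and 28, 398 and 203, and 118 and 64. Leaving out 1 library moved the totals over 41 to 419, 209 to 954 and 52 to 326. The cause was not tested. Il6, Cdkn2a and Gdf15 rest on few reads, and intervals of the other members with 3 or 4 animals a group do not exclude moderate changes.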

Other observations

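Other cell types of the whole tissue also differed in level between animals. B and plasma cell markers summed to 6.74 to 70.3 TPM in Kl/Kl ∆UCS males against 1.11 to 23.9 TPM in control ∆UCS males, to 9.74 to 46.1 TPM in Kl/Kl Bmp2+/+ males against 2.20 to 64.2 TPM in controls, and to 12.2 to 91.3 TPM in Kl/Kl females against 2.92 to 6.43 TPM in controls. None of these 6 genes passed limma on TPM in any background. Adipocyte markers had medians of -1.41, -1.82 and -1.14 on the log2 scale in the same order, and of 7 genes Otop1, a gene of brown fat, fell in Kl/Kl Bmp2+/+ males. Smooth muscle markers had medians of -0.41, 0.50 and 0.24, with 0 of 6 genes called.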
